A study of Mus musculus with 20 samples.

Results

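The transcripts described here are the 200 most abundant of the long non-coding RNAs (lncRNAs) that the submitters assembled from reads of mouse cerebral cortex and that carry no gene symbol in their tables. They were chosen by mean FPKM over 20 libraries, from 558 ranked transcripts. The deposited table lists 561 such transcripts, and 3 of them were left out of the ranking by the rule. FPKM counts the sequenced fragments of a transcript, scaled to its length and to the fragments mapped in its library. Because abundance chose the 200 transcripts, their levels are given as a description and were not tested.

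The study sequenced total RNA from frozen cortex in 4 groups of 5 libraries, all of the strain (C57BL/6 x C3H)F1. Groups WT03M and WT10M were labelled Wild Type and were 3 and 10 months old, and groups TG03M and TG10M carried Tg(Prnp-MAPT*P301S)PS19Vle at the same ages. In PS19 mice the Prnp promoter drives a human tau cDNA with the P301S mutation, a model of tau aggregation in neurons, so the transgene does not follow the expression pattern of the tau gene itself. Replicates are numbered, and nothing in the labels ties a library to an animal of its own. The p-values therefore set differences between groups against the spread among these samples only. The design compares the genotypes at each age, the ages in each genotype, and the difference between the genotype effects at the 2 ages (the interaction).

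A lincRNA is transcribed from a region between protein-coding genes, and an antisense lncRNA from the strand opposite to a gene. Some lncRNAs act on chromatin or on the processing of other RNAs, and in others the act of transcription rather than the RNA is what matters. They are known for low levels and for expression restricted to few cell types, and many of the annotated ones are found in brain. Assembly groups overlapping transcripts into a locus, here an XLOC identifier, and reads shared by transcripts of a locus have to be divided among them. A locus can also hold TUCPs, transcripts of uncertain coding potential. Genome positions and sequences of these assembled transcripts were not analysed here, so each is known only by its identifier, its class and its locus.

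Of the 200 transcripts, 178 were classed as lincRNA and 22 as antisense lncRNA (11%, against 9.5% of the other 358 ranked). They came from 174 of 382 loci. At their locus 108 stood alone and 92 shared it with at least 1 other transcript, and 15 loci held 2 or more of the 200 (41 transcripts). At 21 loci, with 29 of the transcripts, a TUCP was listed too.

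Most of the 200 transcripts were scarce. Their median mean level was 0.700 FPKM, 61 lay between 1 and 10 FPKM, 137 below 1 FPKM, and only 2 at 10 FPKM or more. The median was 0.247 FPKM for the other assembled lncRNAs, 0.425 for TUCPs, 0.598 for annotated non-coding transcripts and 0.447 for protein-coding transcripts. The 200 were chosen for high means and the last 3 classes were not, so these medians are not like for like. A mean of 1 FPKM or more was reached by 31.5% of the 200, 34.8% of annotated non-coding transcripts and 41.4% of protein-coding transcripts. The lowest 2 inside the rank of 200 were LNC_000287 (0.4093 FPKM) and LNC_000475 (0.4091), and the next 2 outside it were LNC_000260 (0.4085) and LNC_000457 (0.4080), so the rank falls in a continuous run of values. At the estimated depth of 22.6 to 30.1 M fragments per library (M, mega), the lowest mean inside the rank, 0.409 FPKM, equals 9.25 to 12.3 fragments per kilobase of transcript. A level of 0.1 FPKM equals 2.26 to 3.01 fragments per kilobase, so values near it rest on a few fragments.

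Several facts of the whole series bear on these values. Prnp, whose promoter drives the transgene, was 426 to 458 FPKM in WT03M against 695 to 812 in TG03M, and 412 to 528 in WT10M against 736 to 841 in TG10M, with no overlap between the genotypes at either age. The summed level of all 5 microglial markers (Csf1r, Cx3cr1, P2ry12, C1qa and Tyrobp) was 119 to 140 FPKM in WT03M against 132 to 154 in TG03M, and 125 to 195 in WT10M against 191 to 251 in TG10M. That of all 5 astrocyte markers was 536 to 588 FPKM in WT03M against 527 to 683 in TG03M, and 501 to 592 in WT10M against 609 to 811 in TG10M. The genotypes also did not overlap at 3 months in the sums of the 5 oligodendrocyte markers (1288 to 1439 FPKM in WT03M, 1496 to 1800.2 in TG03M) and of the 5 markers of inhibitory neurons (489 to 542, and 555 to 603). At 10 months they did not overlap in that of the 4 endothelial markers (79.5 to 97.2 FPKM in WT10M, 100.4 to 117.3 in TG10M). The 5 markers of excitatory neurons summed to 410 to 674 FPKM over all libraries, so the neuronal markers of the labelled tissue were present. Those of choroid plexus summed to between 7.78 and 1037 FPKM, of striatum to 77.1 to 235, of blood to 186 to 1651 and of oligodendrocyte precursors to 17.9 to 28.6. Of the 10 marker lists, these 4 and those of excitatory neurons and microglia overlapped between the genotypes at both ages. That of astrocytes overlapped at 3 months only. The part of these marker levels in differences between groups was not tested. In bulk tissue, fewer cells of a type and less RNA per cell cannot be told apart.

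LNC_000226 had the highest mean level of all transcripts of the series. This antisense lncRNA is the only transcript of its locus, XLOC_015812, and with a mean of 33038 FPKM it ranked 1 of all 54271 transcripts, protein-coding ones included. The next of the 200, LNC_000455 with 21.3 FPKM, ranked 4122. The source of the reads counted for LNC_000226 was not examined.

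The level of LNC_000226 split the libraries into 2 sets that cut across the groups. In WT03M it was 44710.4, 41294, 31047, 30839.7 and 44835 FPKM in replicates 1 to 5. In TG03M it was 21156, 3640.1, 2781, 5676 and 4841 FPKM. In WT10M it was 43013, 45071, 48121, 48628 and 1251 FPKM, and in TG10M 1299, 96107, 95627, 49259 and 1571 FPKM. Thus 13 libraries lay between 21156 and 96107 FPKM and 7 lay between 1251 and 5676: replicate 5 of WT10M, replicates 1 and 5 of TG10M and replicates 2 to 5 of TG03M. The transcript took 4.32 to 16.8% of all FPKM in the 13 libraries and 0.255 to 1.13% in the 7.

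The same 7 libraries stood apart in Hsp90aa1 and Gm26917. Hsp90aa1, which encodes a stress-inducible cytosolic chaperone (chromosome 12, 110690605 to 110702728, minus strand, GRCm38), was 13.9 to 20.5 FPKM in the 7 and 532 to 687 in the 13. Gm26917, an annotated non-coding gene (chromosome 17, 39843013 to 39846341, plus strand, GRCm38), was 3.81 to 17.3 FPKM in the 7 and 289 to 554 in the 13. The mitochondrial transcript mt-Co1, a subunit of cytochrome c oxidase, was 8886 to 13045 FPKM in the 7 and 5998 to 8899 in the 13, which overlap, and it was above LNC_000226 in the 7. Malat1 (2447 to 5019 FPKM in the 7, 3008 to 5305 in the 13) and Meg3 (151 to 262, and 152 to 253) did not separate the 2 sets. Lars2 was highest in replicates 2, 3 and 4 of TG10M, at 654, 1840 and 600 FPKM, against 6.61 to 204 elsewhere. These libraries also had the highest LNC_000226. The part of these differences in the level of LNC_000226 was not tested.

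**Figure D1:**
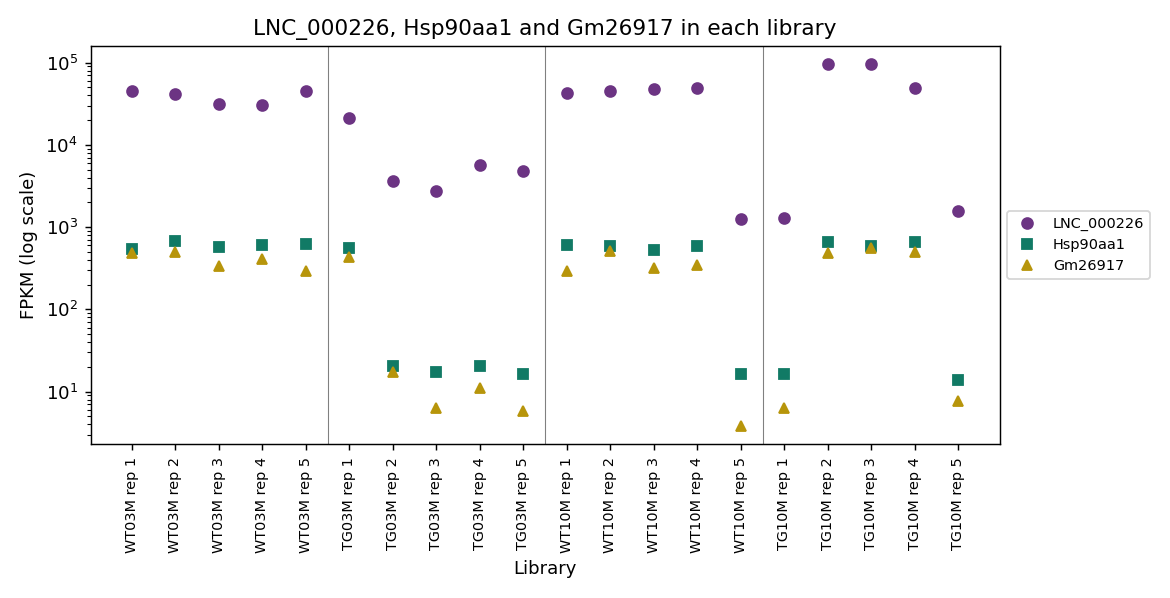
Levels of LNC_000226 (circles), Hsp90aa1 (squares) and Gm26917 (triangles) in each of the 20 libraries, in FPKM on a log axis, with grey lines between the groups. In 7 libraries all 3 are low: LNC_000226 is at most 5676 FPKM there and at least 21156 in the other 13.

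Of the 7 libraries low in LNC_000226, TG03M held 4, TG10M 2, WT10M 1 and WT03M none. In TG03M against WT03M the groups did not overlap, and the difference of log2(FPKM + 0.1) was -2.74 (SE 1.19, limma adjusted p = 0.780). That comparison was called when only these 2 groups were fitted (adjusted p = 0.0390), a fit without the low libraries of WT10M and TG10M. The TG03M library outside the 7, replicate 1, had 21156 FPKM, below the 5 WT03M libraries. In TG10M against WT10M the difference was -0.52 (SE 1.19, limma adjusted p = 0.914), with the 3 TG10M libraries outside the 7 at 49259 to 96107 FPKM and the 4 such WT10M libraries at 43013 to 48628.

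Apart from LNC_000226, the other 199 transcripts summed to 208 to 341 FPKM per library. The highest sums were 341 in replicate 5 of WT10M, 310 in replicate 5 of TG10M and 294 in replicate 4 of WT10M. Without LNC_000454 and LNC_000455 the sum was 189 to 245 FPKM, a narrower range.

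LNC_000455 and LNC_000454 are lincRNAs of the same locus, XLOC_037219, which also holds LNC_000453. LNC_000455 was 0.0229, 11, 13.4, 12.2 and 7.44 FPKM in WT03M and 18.4, 11.7, 12.8, 25.3 and 27.5 in TG03M. It was 15.9, 15, 14.3, 40.7 and 77.3 FPKM in WT10M and 15.6, 10.9, 4.05, 22.6 and 69.3 in TG10M. Replicates 4 and 5 of WT10M and replicate 5 of TG10M were high, and the 2 genotypes overlapped at both ages. In the same 3 libraries LNC_000454 was 13.4, 18.7 and 14 FPKM, against 3.38 to 6.53 in the other 17. LNC_000456, a lincRNA of the separate locus XLOC_037235, was low in these 3 libraries, at 0.882, 0.685 and 1.05 FPKM, against 2.75 to 9.36 elsewhere. None of the 3 transcripts passed the test in any comparison of groups, and the largest difference among them between 2 groups was that of LNC_000455 in WT10M against WT03M (2.53 on the log2 scale, SE 1.01, limma adjusted p = 0.670).

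Others of the 10 most abundant transcripts were steadier. LNC_000150, a lincRNA of XLOC_012009, lay between 3.73 and 4.77 FPKM in all 20 libraries and had the smallest spread of the 200, an SD within groups of 0.0876 on the log2 scale. Its group means were 4.46 ± 0.203 FPKM in WT03M against 4.01 ± 0.272 in TG03M, and 4.47 ± 0.278 in WT10M against 4.14 ± 0.288 in TG10M (SD, n = 5 each). LNC_000202, a lincRNA of XLOC_014723, lay between 6.39 and 10.9 FPKM with an SD of 0.211, and LNC_000553 of XLOC_042606 between 3.33 and 7.64 FPKM. None of these 3 passed the test in any comparison.

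LNC_000164, an antisense lncRNA of XLOC_013267, was lower in every TG03M than in every WT03M library. It was 4.62, 5.88, 4.73, 5.33 and 6.32 FPKM in WT03M and 3.28, 3.36, 4.42, 3.34 and 3.69 in TG03M, a log2 difference of -0.56 that did not pass the limma test (SE 0.22, adjusted p = 0.725). At 10 months its values overlapped, at 7.44, 7.52, 5.23, 6.37 and 2.63 FPKM in WT10M and 4.01, 3.99, 4.63, 5.42 and 3.01 in TG10M (-0.40, SE 0.22, adjusted p = 0.600).

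LNC_000206, a lincRNA of XLOC_014820, had lower means in both transgenic groups but overlapping values. Its means were 4.81 ± 2.20 FPKM in WT03M against 2.60 ± 1.62 in TG03M, and 6.09 ± 1.49 in WT10M against 2.95 ± 1.76 in TG10M (SD, n = 5 each). The limma difference was -1.25 at 10 months (SE 0.51, adjusted p = 0.549) and -0.94 at 3 months (SE 0.51, adjusted p = 0.804).

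LNC_000305, a lincRNA of XLOC_019942, ranged from listed at 0 to 11.2 FPKM. It was listed at 0 in replicate 4 of WT03M, at 0.0884 in replicate 5 of WT03M and at 1.88e-06 in replicate 1 of TG03M. The other 17 libraries held 2.13 to 11.2 FPKM, and no comparison of its groups passed the test.

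**Figure D2:**
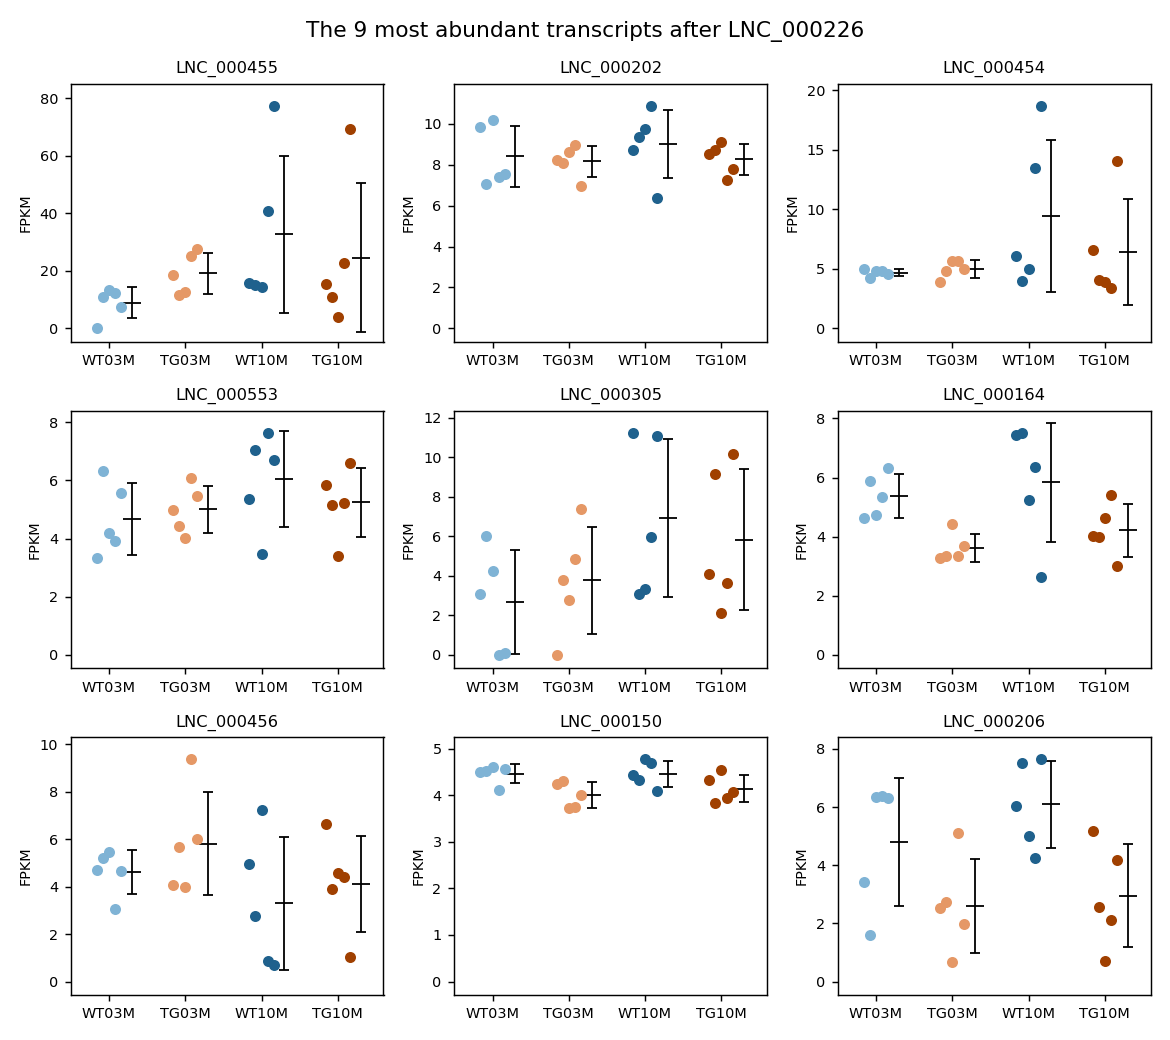
FPKM of the 9 most abundant transcripts after LNC_000226, 1 panel each, with a point per library and, beside each group of 5, its mean and SD on linear axes. LNC_000455 and LNC_000454 show 3 high libraries, in which LNC_000456 is low, while LNC_000150 stays between 3.73 and 4.77 FPKM.

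All 200 transcripts had a mean above the 0.1 FPKM needed for testing, and few differed between groups. A transcript was called at an adjusted p under 0.05 over all 3413 non-coding and TUCP transcripts tested with limma, two-sided, on log2(FPKM + 0.1). In TG10M against WT10M 1 of the 200 was called, LNC_000331, which was higher, where 0.234% of all transcripts tested were called and 0.176% were called higher. In TG03M against WT03M none was called by limma (lowest adjusted p = 0.0532), where 0.117% of all were. In WT10M against WT03M 2 were called, LNC_000331 and LNC_000227, both lower, where 0.117% of all were called, 0.0879% lower and 0.0293% higher. In TG10M against TG03M none was called by limma (lowest adjusted p = 0.402), as was none of all 3413, a background of 0%. The interaction called 1, LNC_000331, against 0.0586% of all.

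At an unadjusted p under 0.05 the counts were 10 of 200 in TG10M against WT10M (5%, against 8.73% of all tested), 20 in TG03M against WT03M (10% against 6.30%), 18 in WT10M against WT03M (9% against 6.33%), 14 in TG10M against TG03M (7% against 6.56%) and 8 for the interaction (4% against 4.01%). The median log2 difference of the 200 was -0.11, -0.07, 0.09, 0.12 and 0.01 in these comparisons, and that of all tested was -0.14, -0.06, 0.08, 0.02 and -0.08. Each group enters 2 of the 4 pairwise comparisons, so these counts share libraries. With 1 to 2 calls, the shares of the 200 rest on LNC_000331 and LNC_000227 alone.

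Well-known annotated lncRNAs of the brain gave no call by limma either. Of a list of 20 symbols, 17 were tested, with 72 transcripts, among them Malat1 of nuclear speckles, the imprinted Meg3 and Rian, and Snhg11. No transcript of the list was called in any of the 5 comparisons, and the lowest adjusted p was 0.261, in TG03M against WT03M. An unadjusted p under 0.05 was reached by 14 of the 72 in TG10M against WT10M (19.4%, against 8.73% of all tested) and by 3 (4.17%, against 6.30%) in TG03M against WT03M, by 4 (5.56%, against 6.33%) and 9 (12.5%, against 6.56%) in the comparisons of age in wild type and transgenic mice, and by 3 in the interaction (4.17%, against 4.01%). Their median log2 difference was -0.16 in TG10M against WT10M and -0.02 in TG03M against WT03M. By gene, Malat1 lay between 2447 and 5305 FPKM, Meg3 between 151 and 262, Snhg11 between 78.0 and 133, and Neat1, which scaffolds paraspeckles, between 4.37 and 17.2.

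LNC_000331, a lincRNA, was listed at near 0 in every wild-type library at 10 months. It was 0.944, 1.1, 0.769, 2.09 and 2.66 FPKM in WT03M, and at most 2.97e-05 FPKM in all 5 WT10M libraries. It was 0.599, 0.728, 1.27, 2.60 and 2.63 FPKM in TG10M. In TG03M it was 1.82 and 1.06 FPKM in replicates 2 and 4 and at most 2.8e-06 in replicates 1, 3 and 5. WT10M therefore overlapped neither WT03M nor TG10M, while TG03M held both kinds of library.

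The difference on the log2(FPKM + 0.1) scale was 3.83 for TG10M against WT10M (SE 0.72, limma adjusted p = 0.0223) and -3.87 for WT10M against WT03M (SE 0.72, adjusted p = 0.0357). The interaction was 6.14 (SE 1.02, adjusted p = 0.0145). Since the near-0 values are set by the added 0.1, the sizes are no fold changes: with 1 added, the values were 1.27, -1.27 and 2.03, and none of the 3 was called (adjusted p = 0.160, 0.181 and 0.286). In TG03M against WT03M the difference was -2.30 (SE 0.72, limma adjusted p = 0.472), and in TG10M against TG03M it was 2.27 (SE 0.72, adjusted p = 0.700). The call for TG10M against WT10M was lost without any 1 of replicates 1 to 4 of WT10M or replicates 4 and 5 of TG10M (adjusted p 0.0573 to 0.106), and that for WT10M against WT03M held only without replicate 3 of WT03M (adjusted p = 0.0370, against 0.0633 to 0.167 without each of the others). The interaction was called without each of the 20 libraries in turn (adjusted p at most 0.0454). Without replicate 5 of WT10M and replicates 1 and 5 of TG10M, none of the 3 was called (adjusted p = 0.271, 0.159 and 0.0986). Without the 7 libraries low in LNC_000226, which leaves 1 library in TG03M, TG10M minus WT10M was 3.86 and called (adjusted p = 0.00223).

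The locus of LNC_000331 as a whole did not show these differences. XLOC_022928 holds 5 transcripts: LNC_000330, LNC_000331, LNC_000332 and LNC_000333, all among the 200, and TUCP_000405. Their summed level was 4.57, 2.22, 3.49, 4.41 and 3.20 FPKM in WT03M and 1.94, 2.74, 4.09, 2.64 and 3.73 in TG03M. It was 5.54, 5.46, 2.83, 4.48 and 5.10 FPKM in WT10M and 3.99, 2.41, 4.32, 3.44 and 6.14 in TG10M. The sums of all groups overlapped, and the limma fit of locus sums gave -0.23 for TG10M minus WT10M (SE 0.25, adjusted p = 0.801), 0.38 for WT10M minus WT03M (SE 0.25, adjusted p = 0.764) and 0.01 for the interaction (SE 0.36, adjusted p = 0.999). The first pair has the opposite sign to LNC_000331 itself.

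Within the locus, LNC_000332 or LNC_000333 was at 1.63 FPKM or more in each of the 8 libraries where LNC_000331 was near 0. That level was also passed where LNC_000331 was present, by LNC_000333 in replicate 1 of WT03M (2.42 FPKM) and replicates 3 and 5 of TG10M (2.03 and 2.76). LNC_000332 passed it in replicate 1 of TG10M (2.26). In WT10M, LNC_000332 was 2.33, 4.83 and 3.88 FPKM in replicates 1, 2 and 5, and LNC_000333 was 2.54, 1.63 and 3.41 in replicates 1, 3 and 4. LNC_000331 made up 20.6 to 83.3% of the locus in WT03M and 15 to 75.4% in TG10M, but at most 0.000663% in WT10M. LNC_000332 was under 0.01 FPKM in 9 of the 20 libraries, the most of any of the 200, and LNC_000331 in 8. By contrast LNC_000330 was present throughout, at 3.50 to 23.6% of the locus. Neither LNC_000332 nor LNC_000333 was called by limma in any comparison, and their lowest unadjusted p was 0.0103, for LNC_000332 in the interaction.

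**Figure D3:**
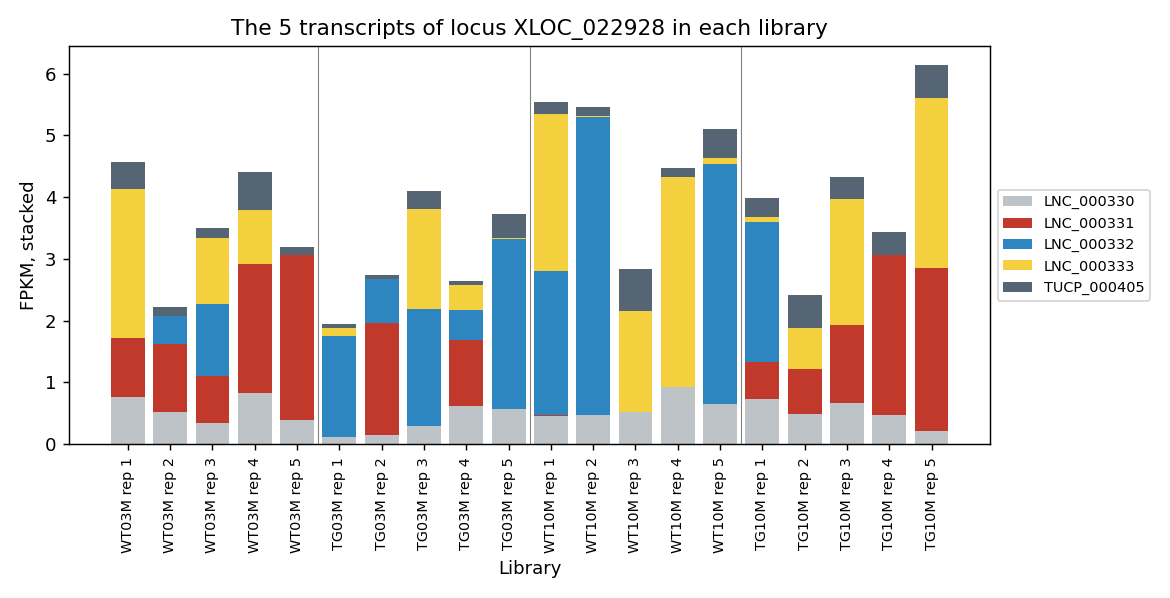
FPKM of the 5 transcripts of locus XLOC_022928 stacked for each of the 20 libraries, with grey lines between the groups. The total lies between 1.94 and 6.14 FPKM throughout, while LNC_000331 (red) is missing from all 5 WT10M bars and from 3 of the 5 TG03M bars.

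LNC_000227, a lincRNA of XLOC_015908, was lower in every WT10M library than in any other library. It was 1.35, 1.39, 0.966, 1.53 and 1.12 FPKM in WT03M and 0.647, 0.679, 0.885, 0.655 and 0.563 in WT10M. It was 1.5, 1.15, 1.47, 1.06 and 1.60 FPKM in TG03M and 1.14, 1.30, 1.01, 1.29 and 1.06 in TG10M. The highest WT10M value, 0.885, lay below the lowest of the other 15 libraries, 0.966.

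Its difference in WT10M against WT03M was -0.80 (SE 0.15, limma adjusted p = 0.0357). That call held only without replicate 3 of WT03M or replicate 3 of WT10M (adjusted p = 0.0188 and 0.0211), and was lost without each of the other 8 libraries of the 2 groups (0.0752 to 0.167). In TG10M against WT10M it was 0.69 (SE 0.15, limma adjusted p = 0.0845), which missed the threshold, though the 2 groups did not overlap. That difference was called after median centring of the libraries (0.83, adjusted p = 0.0281) and after quantile normalization (0.82, adjusted p = 0.0185). The interaction was 0.60 (SE 0.21, limma adjusted p = 0.989), so the genotype difference was not shown to differ between ages.

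The other 4 transcripts of that locus, TUCP_000303 to TUCP_000306, summed to 0.906 to 2.53 FPKM in WT03M and 1.51 to 2.77 in WT10M, and none was called by limma, or had an unadjusted p under 0.05, in any comparison. The sum of the whole locus was 2.44 to 3.50 FPKM in WT03M and 2.08 to 3.45 in WT10M. It differed by -0.10 between them (limma adjusted p = 0.904), and by -0.02 in TG10M against WT10M (adjusted p = 0.977).

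At XLOC_014503 the order was the other way round: the sum of its transcripts was called and its member was not. This locus, singled out after its values were seen, holds LNC_000195, one of the 200, and LNC_000196, and both are lincRNAs. LNC_000195 was 0.205 and 0.139 FPKM in replicates 1 and 2 of WT03M and listed at 0 in the other 3, and it was 0.635, 1.04, 1.34, 1.03 and 1.11 FPKM in TG03M. The 2 groups did not overlap, and the difference of 2.89 missed the threshold (SE 0.58, limma adjusted p = 0.0532). Without any 1 of 9 of the 10 libraries the adjusted p was 0.0664 to 0.217, and without replicate 1 of WT03M, the highest of its group, it was 0.0470.

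Summed over both transcripts, the locus was 0.206, 0.139, 0, 0 and 0 FPKM in WT03M and 0.635, 1.98, 1.34, 1.5 and 1.11 in TG03M. It was 1.07, 0.277, 0.848, 2.17 and 0.662 FPKM in WT10M and 1.07, 1.33, 0.197, 0.558 and 1.59 in TG10M. The 5 values listed for WT03M were below those of all libraries of TG03M and WT10M. An exact 0 in these files can be a failed estimate, and 3 of the 5 WT03M values are such zeros, so the differences below rest on them in part. The sum was higher in TG03M than in WT03M by 3.17 (SE 0.50, limma adjusted p = 0.00334), where 0.161% of 2480 loci were called, and higher in WT10M than in WT03M by 2.65 (SE 0.50, adjusted p = 0.0458), where 0.0806% were. The first call held without any 1 library of its groups (adjusted p at most 0.0182). It was lost without the 7 libraries (2.30, adjusted p = 0.991), a fit that keeps only replicate 1 of TG03M. The second was lost without any of 8 of its 10 libraries, all but replicate 1 of WT03M and replicate 2 of WT10M (adjusted p 0.0522 to 0.209).

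**Figure D4:**
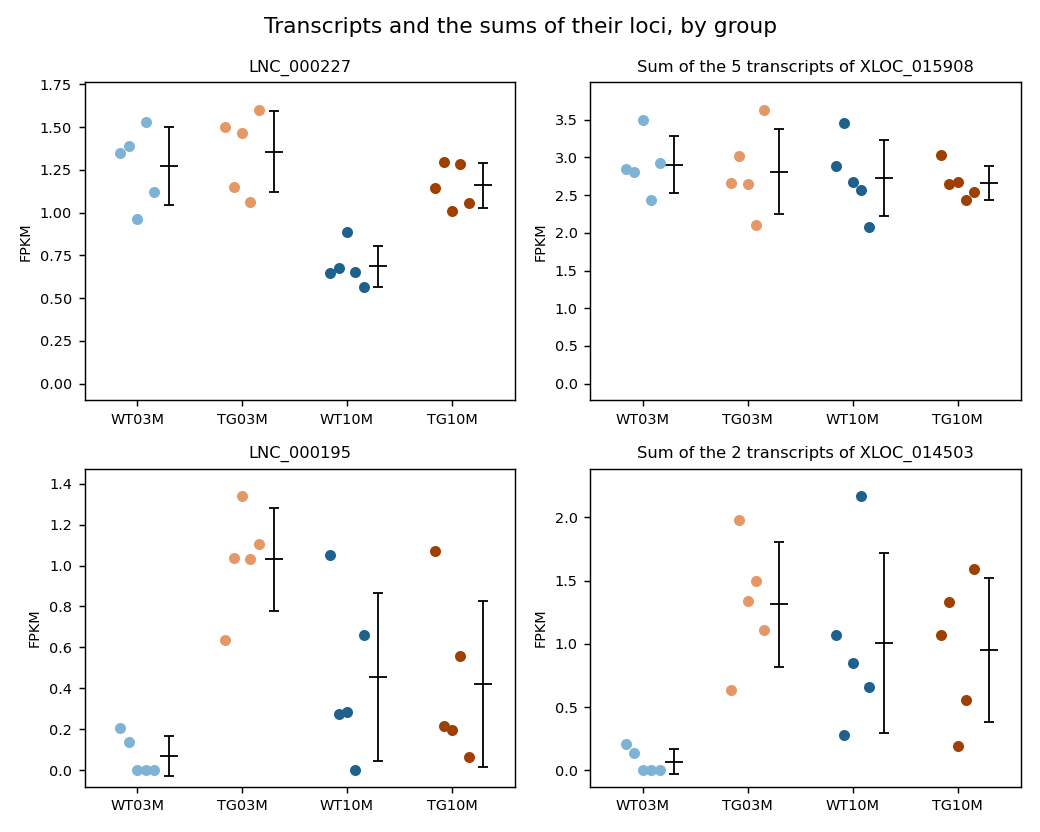
FPKM of LNC_000227 and LNC_000195 (left) and of all transcripts of their loci summed (right), with a point per library and, beside each group of 5, its mean and SD on linear axes. LNC_000227 is low in WT10M at 0.563 to 0.885 FPKM while its locus sum overlaps between groups, and the XLOC_014503 sum is lowest in WT03M at 0 to 0.206 FPKM.

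No other locus of the 174 gave a call from its sum in the 5 comparisons. In TG03M against WT03M the next was XLOC_010767, whose single transcript LNC_000138 is a lincRNA, singled out after its values were seen. LNC_000138 was 2.10, 0.894, 0.217, 1.58 and 1.20 FPKM in WT03M and 0.161, 0.176, 0.206, 0.581 and 0.194 in TG03M. Only replicate 3 of WT03M lay within the range of TG03M. The difference of -1.69 was not called (SE 0.39, limma adjusted p = 0.186), and without any 1 of the 9 other libraries of these groups the adjusted p was 0.0791 to 0.490. Without replicate 3 of WT03M it was -2.13 (adjusted p = 0.000849), but that library is the one that overlaps TG03M, so this value is no support for a difference. At 10 months it was 0.436 to 0.707 FPKM in WT10M and 0.635 to 1.44 in TG10M (0.60, SE 0.39, limma adjusted p = 0.678).

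The spread between replicates was wide for many of the 200. The SD within groups of log2(FPKM + 0.1) had a median of 0.628, against 0.503 over all 3413 transcripts tested. It was under 0.25 for 25 of the 200 and over 1 for 52.

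The transcripts that shared a locus had the wider spread. Their median SD was 0.781, against 0.452 for those alone at their locus, at similar median levels of 0.734 and 0.690 FPKM. At least 1 library under 0.01 FPKM was found for 38 of the 92 that shared a locus (41.3%) and for 24 of the 108 that did not (22.2%). Of the 52 with an SD over 1, 31 shared their locus. By class, the 22 antisense lncRNAs had a median SD of 0.406 and the 178 lincRNAs one of 0.649, and 17 of the 22 stood alone at their locus, against 91 of the 178.

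Summing a locus narrowed the spread. Of the 15 loci with 2 or more of the 200 transcripts, 13 had a sum with a smaller SD than each of those transcripts, the exceptions being XLOC_014723 and XLOC_037219. The median SD was 0.286 for the 15 sums and 0.747 for the 41 transcripts. A sum also has a higher level than its parts, and the part of level in this difference was not tested.

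**Figure D5:**
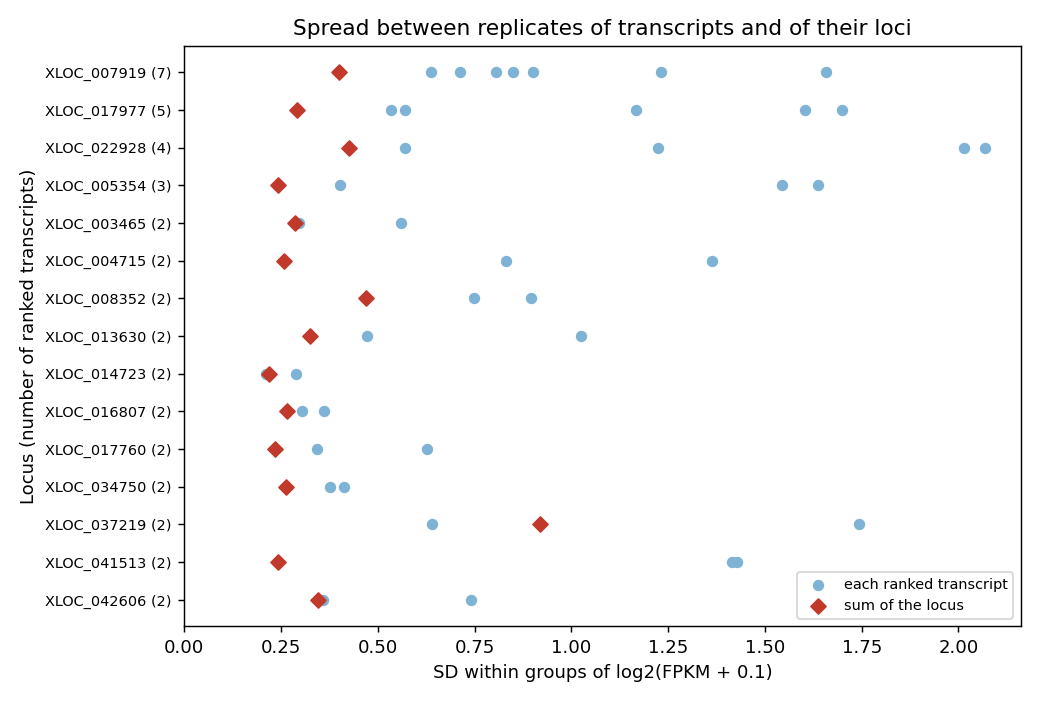
SD within groups of log2(FPKM + 0.1) for each ranked transcript (circles) and for the sum of its locus (diamonds), at the 15 loci with 2 or more of the 200 transcripts, whose number is in brackets. The diamond lies left of all circles at 13 loci, with XLOC_014723 and XLOC_037219 as the exceptions.

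The loci richest in the 200 transcripts show this. XLOC_007919 holds 13 lncRNAs, 7 of them among the 200, and its sum was 6.00 to 17.3 FPKM. Its most abundant transcript, LNC_000085, ranged from 0.848 to 7.43 FPKM and LNC_000088 from 0.403 to 4.56. XLOC_017977 holds 13 lncRNAs, 5 of them among the 200, and 3 TUCPs, with a sum of 10.2 to 22.0 FPKM. There LNC_000262 ranged from 1.78 to 5.92 FPKM, while LNC_000265 ranged from 4.76e-08 to 5.35. XLOC_005354 holds 3 lincRNAs, all among the 200, and its sum was 1.64 to 3.94 FPKM. Of these, LNC_000065 was 1.02 FPKM or more in every library, LNC_000064 was under 0.01 FPKM in 7 libraries and LNC_000066 in 5.

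The largest spreads were those of LNC_000210 (SD 2.52), LNC_000333 (2.07) and LNC_000226 (2.05). LNC_000210, a lincRNA alone at XLOC_015017, was listed at 0 in 5 libraries: replicates 2 and 3 of WT03M, replicates 4 and 5 of WT10M and replicate 5 of TG10M. In the other 15 libraries it was 2.01 to 10.1 FPKM. LNC_000368, a lincRNA alone at XLOC_027600, was likewise under 0.01 FPKM in 5 libraries and reached 7.36 FPKM. With such gaps no fold change is given for either.

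At the other end, 123 of the 200 were at 0.1 FPKM or more in every library, 76 of them alone at their locus. After LNC_000150 the steadiest were LNC_000026 (2.24 to 3.09 FPKM, SD 0.115), LNC_000277 (0.396 to 0.612 FPKM, SD 0.124) and LNC_000315 (3.16 to 4.24 FPKM, SD 0.128), lincRNAs that stand alone at their loci. Among the antisense lncRNAs, LNC_000552 (0.315 to 0.557 FPKM, SD 0.191) and LNC_000172 (0.611 to 1.49 FPKM, SD 0.195) varied least. LNC_000277 and LNC_000552 were at similar low levels to LNC_000287 and LNC_000475, whose lowest libraries held 0.0636 FPKM and 2.88e-08 FPKM.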

How the data were processed

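The values are FPKM per transcript as deposited by the authors, who per the submitters' processing notes used CASAVA, TopHat2, Cuffdiff and DESeq2 with the builds GRCm38 and mm10. No role, order or version of a tool, strand setting or assembler is given in the sources used here. FPKM and no read counts were at hand. Depth was estimated from low FPKM values among 1817 single-transcript genes of over 4000 bases, with 59 to 88 such values per library. Of these, 77.9 to 92.1% lay within 0.1 of a whole multiple of a step (20% if evenly spread). The step was set from these same values, so 20% is not an exact share by chance. At most 0.00561% of values were identical between 2 libraries of a group.

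The 200 transcripts and the lists were chosen with earlier results of these data known. Transcripts classed as non-coding or TUCP whose mean reached 0.1 FPKM (3413) were fitted on log2(FPKM + 0.1) with limma 3.58.1 (R 4.3.3; lmFit, contrasts and eBayes with trend; two-sided; 1 mean per group, 16 residual degrees of freedom), and p-values were adjusted by Benjamini-Hochberg over all of them. Calls are adjusted p under 0.05. Locus sums add the FPKM of all non-coding and TUCP transcripts of an identifier. No scaling was added. The fit was tested on simulated data. Figures and summaries used Python 3.11.15 with pandas 2.3.3, numpy 2.4.6 and matplotlib 3.10.9, and gene positions came from GENCODE M21.

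The transcripts named are the 10 most abundant, up to 2 called higher and 2 called lower per comparison, the 3 of largest spread and the 4 at the threshold. Others were chosen after their values were seen: LNC_000195, LNC_000138, LNC_000112, those named as steadiest or as near 0 in several libraries, and the other transcripts of described loci. Alternatives covered the pseudocount, the filter, scaling, the replicate number, the transcripts and samples fitted, and each library left out. Locus sums and leaving out 3 or 7 libraries were added after seeing the data.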

Additional observations from a re-analysis of the deposited data

Results flagged for a closer look

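In 72 groups of 5 libraries, for 18 transcripts, 9 held a library whose gap to the nearest other, as a share of the group's range, was above 0.71. For normally distributed values about 1 in 20 groups would be marked so by chance. These values have a floor at 0, and 3 of the transcripts were named for their large spread. The 9 can therefore not be set against that share. The gap was 0.966 of the range for LNC_000226 in replicate 5 of WT10M, at 1251 FPKM against 43013 to 48628 in the others, and this library was also among the 7 low in Hsp90aa1 and Gm26917. For LNC_000455 in replicate 1 of WT03M, at 0.0229 FPKM against 7.44 to 13.4, it was 0.875. For LNC_000305 in replicate 1 of TG03M, at 1.88e-06 FPKM against 2.79 to 7.39, it was 0.779. The gap was 0.764 for LNC_000210 in replicate 5 of TG10M, listed at 0 against 2.01 to 5.32 FPKM.

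The rest were in WT03M: LNC_000456 (0.722) and LNC_000150 (0.762), both in replicate 4, LNC_000287 (0.766) in replicate 5, LNC_000475 (0.753) in replicate 2 and LNC_000457 (0.759) in replicate 3. All 9 were the lowest library of their group, on a scale that stretches differences between low values. Replicate 4 of WT03M had 3.07 FPKM of LNC_000456 against 4.67 to 5.48, and 4.11 FPKM of LNC_000150 against 4.49 to 4.62.

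The effect of genotype on LNC_000331 differed between 3 and 10 months by 6.14 on the log2(FPKM + 0.1) scale in the interaction test (SE 1.02, limma adjusted p = 0.0145). The sum of its locus gave 0.01 in that test (adjusted p = 0.999).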

How the results depend on the processing

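Counts of called transcripts are small, so settings move them by whole calls. In the order TG10M against WT10M, TG03M against WT03M, WT10M against WT03M, TG10M against TG03M and interaction, they were 1, 0, 2, 0 and 1. A pseudocount of 1 gave 0, 1, 0, 0 and 0. Locus sums gave 0, 1, 1, 0 and 0. Leaving out 3 libraries gave 0, 2, 0, 1 and 0, and leaving out 7 gave 1, 2, 1, 3 and 1. In TG10M against WT10M the count was 2 with a filter at 0.5 FPKM, median centring or quantile normalization. In TG03M against WT03M it was 1 with median centring or with the assembled lncRNAs alone, and 2 with the compared groups alone. In WT10M against WT03M it was 1 with the compared groups alone. Leaving out each library in turn gave 0 to 1, 0 to 1, 0 to 2, 0 to 0 and 1 to 2 calls.

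Locus sums reversed the sign for LNC_000331 in TG10M minus WT10M (-0.23) and WT10M minus WT03M (0.38), and for LNC_000227 in TG10M minus WT10M (-0.018). The counts without 3 or 7 libraries include LNC_000226 in TG03M against WT03M (3 left out) and in TG10M against TG03M (3 or 7), and since the 7 were chosen by its own level, these are no evidence on it. The other calls gained without the 7 were those of LNC_000331 and LNC_000112 in both of these comparisons, with 1 TG03M library, assumed to vary like the other groups.

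No pairing of samples by replicate number was seen, though this does not exclude one. Same-numbered libraries of different groups correlated at a median r of 0.0065 (highest 0.180), and differently numbered ones at -0.0023 (highest 0.104). Of the 20 libraries, 5 correlated best with their own number. With a replicate block the counts were 1, 0, 1, 0 and 1. Ranking by median FPKM kept 191 of the 200 transcripts, and ranking by mean log2(FPKM + 0.1) kept 181. The cause of these changes was not tested. At 0.1 FPKM a value rests on 2.26 to 3.01 fragments per kilobase, which limits the scarce transcripts most.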
